A study of Mus musculus with 8 samples.

Results

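Notch1, Notch2, Dtx1, Hes1 and Rbpj, the Notch receptors of B cells with their DNA-binding partner and 2 of their targets, were followed on 8 gene expression arrays of mouse follicular (FO) B cells. All probe sets that the array platform's annotation assigns to 1 of these symbols were taken, which gave 5 genes of 8251 measured genes and 7 probe sets (groups of short probes that read 1 transcript). The cells carried an antigen receptor against hen egg lysozyme (HEL), either as IgM or as IgMG, a chimera in which the spacer, the transmembrane part and the cytoplasmic part of IgM give way to those of IgG1. Each receptor was measured without stimulation and with HEL, on 2 arrays each, and the study set the HEL response of the receptors side by side. The cells came from pooled mice: 2 and 4 mice on the unstimulated IgM arrays, 4 and 2 on the IgM arrays with HEL, 5 and 6 on the unstimulated IgMG arrays and 8 and 6 on the IgMG arrays with HEL. Receptor and number of pooled mice cannot be told apart, because every IgMG array pooled more mice than any IgM array. Mouse strain, age, the promoter of the receptor genes, HEL dose and stimulation time are not stated in the labels, nor is whether arrays share mice, so p-values measure the spread between these arrays.

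Notch receptors sit at the cell surface and are cut after they bind a ligand on a neighbouring cell, first by the metalloprotease ADAM10 and then by gamma-secretase. The freed intracellular domain enters the nucleus and joins RBPJ, which otherwise holds target genes silent together with corepressors, and the complex then switches on targets such as Hes1 and Dtx1. In the spleen, Notch2 with the ligand Dll1 on stromal cells directs B cells into the marginal zone, and Dtx1 is known as a gene that marginal zone B cells hold at a high level.

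RBPJ binds DNA at sites with the core TGGGAA, so the bases before the transcript start were searched for that core on both strands. The RefSeq promoter table (GRCm38.p6) holds 4 of the 5 genes, and the 250 bases before the start of Rbpj and of Dtx1, the members whose HEL responses lay furthest apart between the receptors, are shown with any match in capitals. The Rbpj window lies at chr5:53590096-53590345 on the plus strand and the Dtx1 window at chr5:120711670-120711919 on the minus strand.
Rbpj: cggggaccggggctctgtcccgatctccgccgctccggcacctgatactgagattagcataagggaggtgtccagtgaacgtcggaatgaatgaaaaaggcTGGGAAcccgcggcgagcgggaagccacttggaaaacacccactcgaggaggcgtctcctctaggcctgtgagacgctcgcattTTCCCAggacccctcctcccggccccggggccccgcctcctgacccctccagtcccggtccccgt
Dtx1: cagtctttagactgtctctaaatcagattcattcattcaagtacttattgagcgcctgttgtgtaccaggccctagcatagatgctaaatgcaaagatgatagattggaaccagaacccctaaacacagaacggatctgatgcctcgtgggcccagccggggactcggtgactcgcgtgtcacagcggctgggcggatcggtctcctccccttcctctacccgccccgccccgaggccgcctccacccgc
The Rbpj window held 2 matches, TGGGAA starting 149 bases and its reverse complement TTCCCA starting 65 bases before the transcript start. A second Rbpj start in the table has the window chr5:53590236-53590485, which overlaps the first and held 1 match, 205 bases before that start. The windows of Dtx1, Notch1 (chr2:26503823-26504072, minus strand) and Notch2 (chr3:98013288-98013537, plus strand) held 0 matches. Of 32851 promoter windows of that length in the table, 7094 (21.6%) held at least 1 match, and a match is a run of letters, not a measured binding site.

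Values are array signals on a linear scale, which the authors scaled to a like mean on every array. Changes are log2 differences of signal plus 16, tested with limma over the brightest 60% of probe sets (7453) with Benjamini-Hochberg adjustment, and a probe set is said to rise or fall where its adjusted p was under 0.05. All 7 member probe sets were among these. Signals of different probe sets are not set against each other, since probes differ in brightness. With 2 arrays against 2, an exact permutation test cannot go below p = 0.333, so the tests lean on the spread shared by all probe sets. In these bulk samples, fewer cells of a type and less RNA per cell cannot be told apart.

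The arrays had median signals of 40.6 to 47.7, and the 2 arrays of a group correlated at r = 0.962 to 0.978 across probe sets. The B cell marker list summed to 32200 to 40900 on every array, and the T cell list, of which 11 of 13 genes had a probe set and 3 were bright enough for testing, to 225 to 537. Its defining genes Cd3e, Cd3d and Cd3g stayed at or below 16.2, while Zap70, Cd5 and Cd4 reached 357, 118 and 89.8. RNA of red blood cells was prominent on every array: the erythroid list summed to 12700 to 20200, with Hba-a1 at 9590 to 16600. Its part in the member values was not tested. The antigen response genes used to check the labels summed to 1200 to 1360 on unstimulated arrays and to 8150 to 12900 with HEL. A pair of arrays stood apart: the second IgM array with HEL had a 5'/3' signal ratio of 0.755 for Gapdh, a measure of RNA integrity, against 0.14 to 0.395 elsewhere, and the second unstimulated IgMG array had a myeloid marker sum of 16700 against 1860 to 6780.

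**Figure D1:**
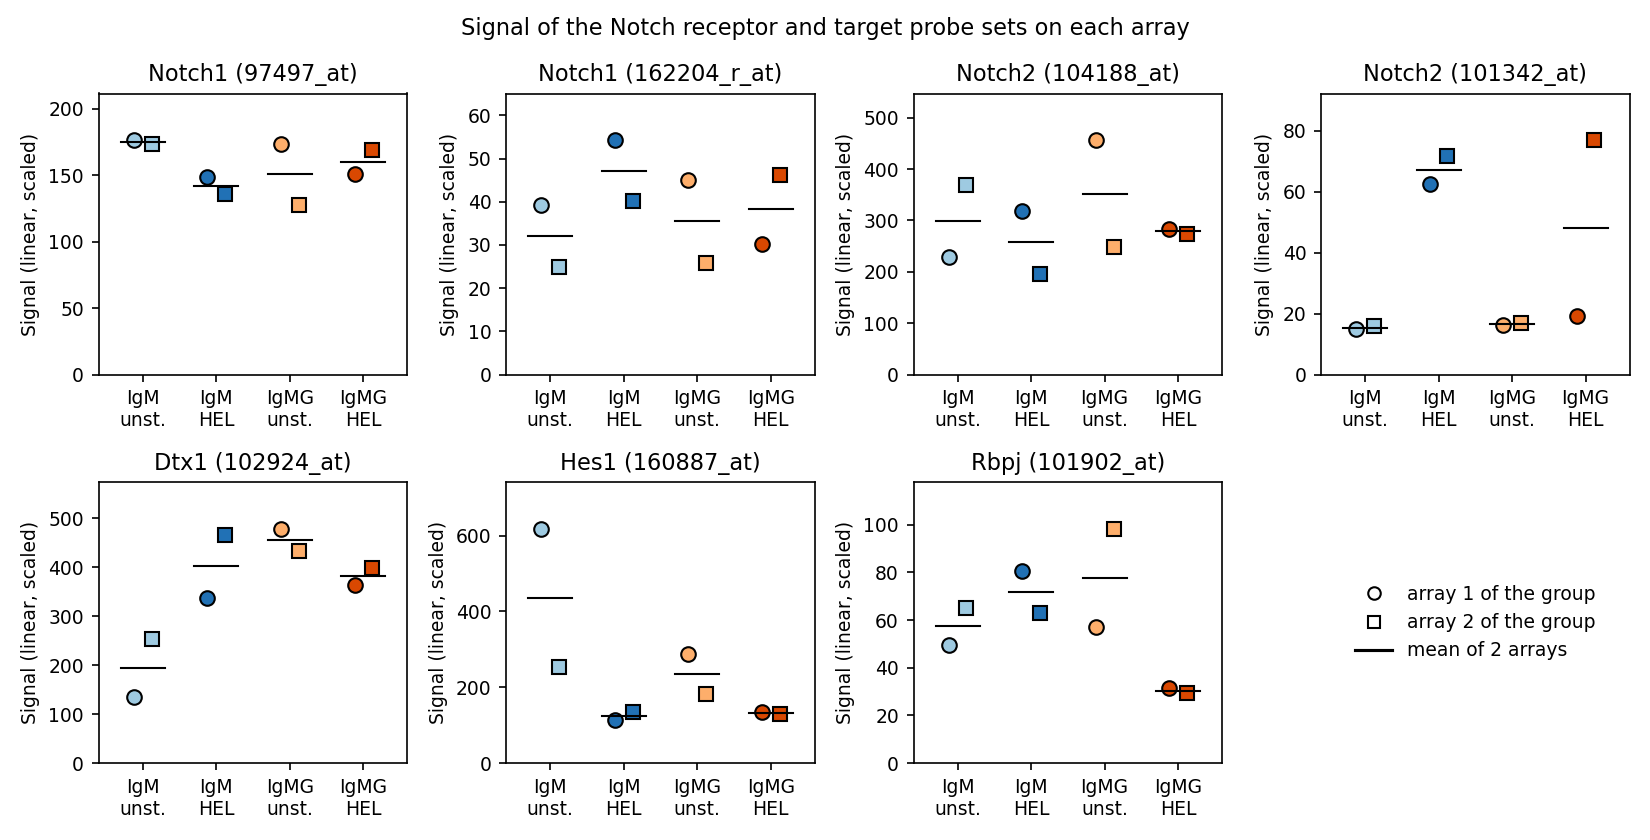
Linear signal of each member probe set (vertical axes from 0) on the 8 arrays, by group on the horizontal axis; circles and squares are the first and second array, lines the mean of 2 arrays. Dtx1 is low on both unstimulated IgM arrays, Hes1 is lower with HEL under both receptors, and Rbpj is low on both IgMG arrays with HEL (31.5 and 29.4).

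Under the IgM receptor, HEL was accompanied by a rise of Dtx1 and a fall of Hes1, while neither receptor gene passed the test at its brightest probe set. Across the 7 member probe sets 1 rose and 1 fell, where 14% of all tested probe sets passed, 6.7% by rising and 7.27% by falling. The median change was 0.26 over the 7 member probe sets, but -0.2 over the brightest probe set of each member gene. That of all probe sets was -0.02. Under IgMG, 0 of the 7 passed, where 5.39% of all did, and 1 had an unadjusted p under 0.05, that of Rbpj, where 22.3% of all did. The median change of the members under IgMG was -0.25, and -0.26 over the brightest probe set of each gene, and that of all probe sets was -0.05.

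The receptor genes come first. The brighter Notch1 probe set (97497_at) read 176.2 and 173.3 on the unstimulated IgM arrays, 148.5 and 136 with HEL, 173.4 and 127.9 on the unstimulated IgMG arrays and 150.7 and 168.9 on IgMG arrays with HEL. The IgM arrays with HEL lay below both unstimulated IgM arrays, as 30.6% of all tested probe sets did, while the IgMG groups overlapped. Its change was -0.27 ± 0.19 (log2, SE; adjusted p = 0.404 in limma) under IgM and 0.09 ± 0.19 (adjusted p = 0.843) under IgMG. The 95% interval under IgM ran from -0.71 to 0.17.

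The dimmer Notch1 probe set (162204_r_at) read 39.3 and 25 without and 54.2 and 40.2 with HEL under IgM, and 45.1 and 25.9 without and 30.2 and 46.3 with HEL under IgMG. It lay higher with HEL under IgM, as 27.6% of all probe sets did, opposite to the brighter probe set, and overlapped under IgMG. Its changes were 0.40 ± 0.31 (adjusted p = 0.448 in limma) and 0.08 ± 0.31 (adjusted p = 0.915). The probe sets of Notch1 thus gave no common direction under IgM.

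Notch2, the receptor that marginal zone B cells need, read 229.1 and 368 on the unstimulated IgM arrays, 317.7 and 196.7 with HEL, 455.7 and 248.1 on the unstimulated IgMG arrays and 284 and 274.3 with HEL at its brighter probe set (104188_at). Every neighbouring pair of groups overlapped, and in 3 of the 4 groups the 2 arrays lay further apart than the highest and the lowest group mean. The changes were -0.20 ± 0.33 (adjusted p = 0.738 in limma) under IgM and -0.26 ± 0.33 (adjusted p = 0.716) under IgMG. The intervals, -0.96 to 0.55 and -1.01 to 0.49, leave room for a change of either sign.

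The dimmer Notch2 probe set (101342_at) showed another pattern. It read 15.1 and 15.8 on the unstimulated IgM arrays, 62.4 and 71.6 with HEL, 16.2 and 16.8 on the unstimulated IgMG arrays and 19.1 and 76.8 with HEL. All 4 arrays with HEL lay above all 4 without, as 10.8% of tested probe sets did, but the first IgMG array with HEL lay close to the unstimulated level. The 4 unstimulated signals lay below 23.2, the lowest mean signal of a tested probe set. This probe set was thus tested only through its arrays with HEL, so the filter favoured a rise. The change was 1.40 ± 0.42 (adjusted p = 0.057 in limma) under IgM and 0.81 ± 0.42 (adjusted p = 0.294) under IgMG. The IgM value, unchanged at 1.40, passed with only the 4 arrays of the comparison (adjusted p = 0.0192) and without the first or the second IgMG array with HEL (adjusted p = 0.0189 and 0.0229). Averaged over both receptors it rose by 1.11 ± 0.30 (adjusted p = 0.0296 in limma). In that comparison 20.2% of all probe sets passed, 9.18% by rising and 11% by falling. The members again counted 1 that fell and 1 that rose, this probe set. That call is fragile: it was lost without any 1 of 6 of the 8 arrays, and without the second IgMG array with HEL the value was 0.75 (adjusted p = 0.0674). Over the same average the brighter probe set stood at -0.23 ± 0.23 (adjusted p = 0.539), so the probe sets of Notch2 disagreed.

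Rbpj, the factor through which all Notch receptors act on DNA, read 49.7 and 65.3 on the unstimulated IgM arrays and 80.7 and 63.2 with HEL. Under IgMG it read 57.3 and 98.3 without and 31.5 and 29.4 with HEL. The IgMG arrays with HEL were the lowest of the series and overlapped no other group, while the other 3 groups overlapped. Their Rbpj signals were dim: they lay below the medians of those arrays, 43.2 and 41.5, and near 23.2, the lowest mean signal of a tested probe set. Of all probe sets 29.4% lay lower with HEL under IgMG without overlap. The change under IgMG was -0.98 ± 0.28, a ratio of 0.507, with an unadjusted p = 0.00636 and an adjusted p = 0.0771 in limma, so it missed the threshold. Under IgM the change was 0.26 ± 0.28 (adjusted p = 0.584).

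The second unstimulated IgMG array carried both the highest Rbpj signal (98.3) and the highest myeloid and NK cell marker sums of the series, 16700 and 2240. The part of those cells in the Rbpj value was not tested, but without that array the change under IgMG was -0.66 (adjusted p = 0.256 in limma). Without the first unstimulated IgMG array it was -1.30 (adjusted p = 0.0488). The IgMG arrays with HEL also had the lowest 5'/3' ratios of Gapdh, 0.221 and 0.14, and with that ratio in the fit the change was -1.01 (adjusted p = 0.113). The lower unstimulated IgMG signal, 57.3, lay above both IgMG signals with HEL.

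Rbpj was also the member that differed most between the receptors once HEL was present. Its signal was 72 ± 12.4 (SD, n = 2) in IgM cells and 30.4 ± 1.48 (SD, n = 2) in IgMG cells with HEL. The difference, IgMG minus IgM, was -0.91 ± 0.28 (unadjusted p = 0.0092, adjusted p = 0.246 in limma), with the IgMG arrays below the IgM arrays, which 24.5% of all probe sets showed. None of the 7 member probe sets passed there, and of all 7453 only 1 did (0.0134%), while 13.9% had an unadjusted p under 0.05.

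Dtx1 encodes Deltex1, an E3 ubiquitin ligase that binds the Notch intracellular domain and is itself a Notch target. It read 135.6 and 254 on the unstimulated IgM arrays, 337.4 and 466.3 with HEL, 478.1 and 432.8 on the unstimulated IgMG arrays and 363 and 399.1 with HEL. Only the unstimulated IgM arrays were low, and they overlapped no other group, whereas neighbours among the other 3 groups overlapped. Under IgM Dtx1 rose by 1.03 ± 0.27, a 2.04-fold change (95% interval 0.41 to 1.65, adjusted p = 0.0385 in limma). Under IgMG both arrays with HEL lay below both without, as for 29.4% of tested probe sets. The change under IgMG was -0.25 ± 0.27 (interval -0.87 to 0.37, adjusted p = 0.66 in limma).

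The rise of Dtx1 under IgM rested on single arrays. Without the first unstimulated IgM array it was 0.61 (adjusted p = 0.208 in limma), without the second IgM array with HEL 0.80 (adjusted p = 0.219), and without the first or the second IgMG array with HEL, which leaves the value at 1.03, the adjusted p was 0.0713 and 0.0718. With the 5'/3' ratio of Gapdh in the fit the value was 0.97 (adjusted p = 0.152). The direction held in all 18 alternatives, between 0.61 and 1.45.

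Before stimulation, Dtx1 differed more between the receptors than any other member. The signal was 195 ± 83.7 (SD, n = 2) in IgM cells and 455 ± 32 (SD, n = 2) in IgMG cells. The difference was 1.22 ± 0.27, a 2.33-fold excess of signal plus 16 in IgMG cells (interval 0.60 to 1.84, unadjusted p = 0.00164 in limma). Of tested probe sets, 0.711% had a larger difference of either sign. Its IgMG arrays lay above its IgM arrays, as for 16.5% of all probe sets. After adjustment over all probe sets p was 0.965, and without the first unstimulated IgM array the difference was 0.80. In this comparison 0 of 7453 probe sets passed (0%) in limma, and 344 (4.62%) had an unadjusted p under 0.05. With HEL the receptors stood at -0.06 ± 0.27 (adjusted p = 0.942) for Dtx1, and their arrays overlapped.

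Markers of marginal zone B cells were compared at rest too, and in 6 of the 10 tested genes both IgMG arrays lay above both IgM arrays. Of all tested probe sets 16.5% did. The list holds 14 genes, of which 11 had a probe set, and its summed signal was 1710 to 1800 on the unstimulated IgM arrays and 2150 to 2700 on the unstimulated IgMG arrays. Cr2, the complement receptor that marginal zone B cells hold at a high level, read 45.6 and 68.3 against 85.6 and 98.8, and Cd9 read 118 and 67.9 against 164 and 213. Cd1d1, an antigen-presenting molecule, read 400 and 490 against 507 and 535, and Dusp16, Ebi3 and Ahnak also lay above. The other 4, Cd36, S1pr3, Rgs10 and Plxnd1, overlapped, and Plxnd1 for one read 179 and 64 against 70.5 and 168. Marco stayed at or below 16.9 on all arrays. The median difference of the 10 tested markers was 0.46 and that of all probe sets was 0.01, but 0 of the 10 passed in limma. With HEL the sums were 1210 to 1350 under IgM, where Dtx1 rose, and 1670 to 1820 under IgMG. The part of these cells in the Dtx1 values was not tested.

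Some genes of other cell types, most of them myeloid, also lay higher at rest in IgMG cells. Of 14 tested myeloid markers 8 lay above both IgM arrays on both IgMG arrays and 6 overlapped, where 16.5% of all tested probe sets lay above. The whole myeloid list summed to 4910 and 3360 on the unstimulated IgM arrays and to 2860 and 16700 on the unstimulated IgMG arrays. S100a8 and S100a9 were among those that overlapped. They read 1570 and 963 against 371 and 5340, and 1180 and 688 against 283 and 4100. The complement genes C1qa and C1qb, which macrophages express, read 66.5 and 72.8 against 153 and 353, and 50.8 and 87.1 against 185 and 354. Fcer1g read 9 and 20 against 45.2 and 72.8. Both unstimulated IgM signals of Fcer1g lay below 23.2, the lowest mean signal of a tested probe set, and with HEL it read 23.7 and 3.5 under IgM. Fcer1g was thus tested only through its IgMG arrays, so the filter favoured its place among those above. Of 6 tested NK cell markers 2 lay above and 4 overlapped, and all 5 erythroid and all 3 tested plasma cell markers overlapped. The T cell list summed to 225 to 226 against 436 to 537; of its 3 tested genes Zap70 lay above, at 94.7 and 88.2 against 357 and 329, Cd5 lay below and Cd4 overlapped. None of these markers passed in limma. Their part in the resting Dtx1 difference was not tested, and without the second unstimulated IgMG array, which had the highest myeloid sum, that difference was 1.29 (adjusted p = 0.637).

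The first unstimulated IgM array had the lowest Dtx1 signal and the highest Hes1 signal of the series. It also had the lowest Fcer2a signal (1100, against 1970 to 3430 elsewhere), the gene of the follicular marker CD23, and the highest signals of Vpreb3 (1500, against 374 to 1010) and Cd93 (300, against 80.6 to 176), which immature B cells express. The part of that makeup in the values of Dtx1 and Hes1 was not tested. The array pooled 2 mice from 1 sort.

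The arrays with HEL lay above the unstimulated arrays under IgM and below them under IgMG for Dtx1, with no overlap in either, as they did, in either order, for 374 of 7453 probe sets (5.02%). The test of the difference of responses, IgMG minus IgM, gave -1.28 ± 0.39 for Dtx1 (interval -2.15 to -0.40, unadjusted p = 0.0094, adjusted p = 0.414 in limma). Rbpj gave -1.24 ± 0.39 (unadjusted p = 0.0115, adjusted p = 0.414), on the same side. For Dtx1 the gap lay between the unstimulated groups, while for Rbpj it lay between the groups with HEL. None of the 7 member probe sets passed, nor did any of the 7453 (0%), of which 750 (10.1%) had an unadjusted p under 0.05, 2 of them the members named here.

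**Figure D2:**
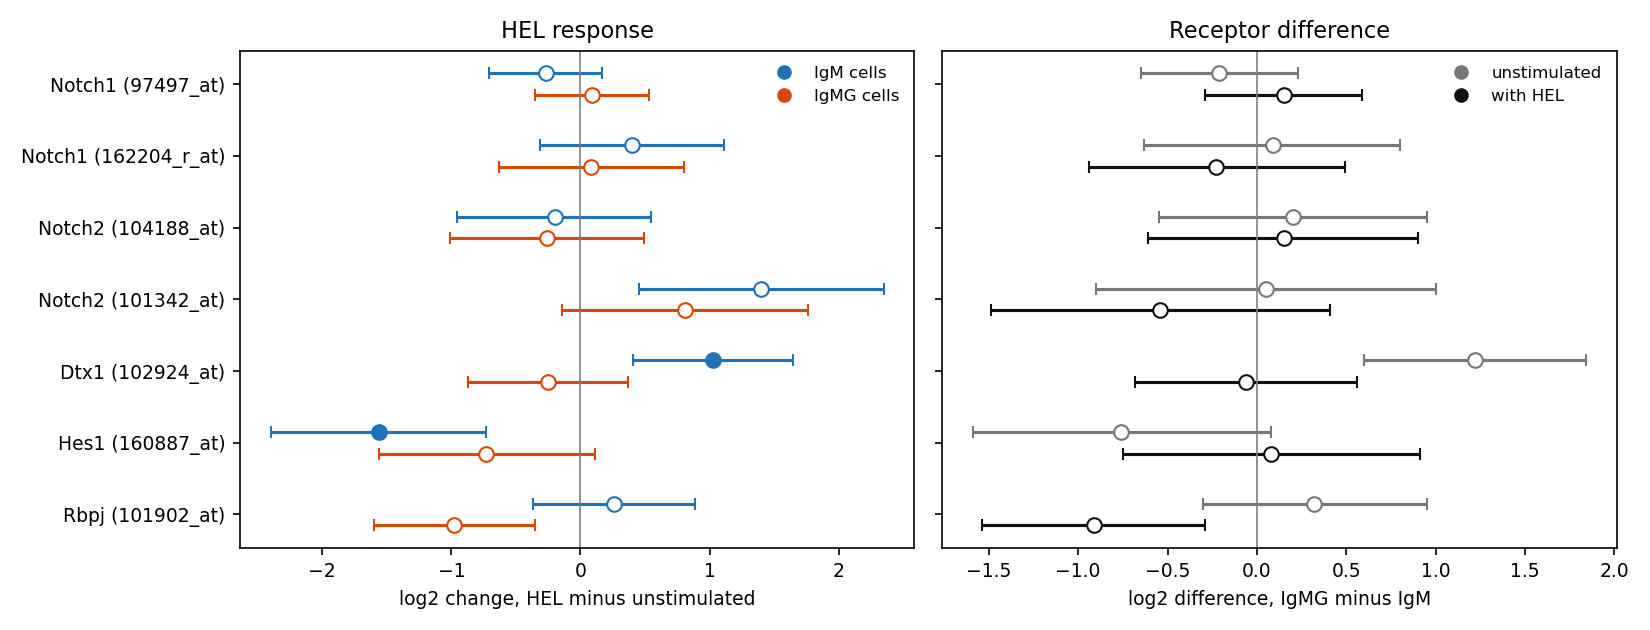
Log2 differences of the 7 member probe sets with 95% intervals of the fit: HEL minus unstimulated for each receptor (left) and IgMG minus IgM without and with HEL (right); filled points had an adjusted p under 0.05. Filled points are Dtx1 (1.03) and Hes1 (-1.56) under IgM, and no point on the right is filled.

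Hes1, a repressor of transcription and one of the best known Notch targets, read 617.7 and 254.1 on the unstimulated IgM arrays and 113.7 and 135 with HEL. Under IgMG it read 287.5 and 181.3 without and 135.3 and 128.7 with HEL. All 4 arrays with HEL lay below all 4 without, as 12.9% of tested probe sets did, and the arrays with HEL agreed closely between the receptors. Under IgM Hes1 fell by 1.56 ± 0.37 on the log2 scale, to 0.338 of the unstimulated level (interval -2.40 to -0.73, adjusted p = 0.0249 in limma), and 2.58% of tested probe sets changed more. Under IgMG the change was -0.73 ± 0.37 (interval -1.56 to 0.11, adjusted p = 0.286).

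The difference of these responses was 0.84 ± 0.52 (interval -0.34 to 2.02, adjusted p = 0.577 in limma), so a smaller Hes1 response under IgMG was not shown. The receptors differed at rest by -0.76 ± 0.37 (adjusted p = 0.995), with overlapping arrays, and with HEL by 0.08 ± 0.37 (adjusted p = 0.939). Averaged over the receptors, Hes1 fell by 1.14 ± 0.26 (interval -1.73 to -0.55, adjusted p = 0.0154). Dtx1 and Hes1, both Notch targets, thus took opposite directions with HEL in IgM cells.

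The size of the Hes1 fall under IgM turned on the first unstimulated IgM array, the highest of the series. Without it the change was -0.95 (adjusted p = 0.126 in limma), without the first and the second IgM array with HEL it was -1.45 (adjusted p = 0.0926) and -1.67 (adjusted p = 0.0995), and without the first or the second IgMG array with HEL the adjusted p was 0.0504 and 0.0507. With the 5'/3' ratio of Gapdh in the fit it was -1.70 (adjusted p = 0.0781). The averaged response was -0.84 (adjusted p = 0.0309) without the first unstimulated IgM array, and lost its call without the first (-1.16, adjusted p = 0.0523) or the second (-1.13, adjusted p = 0.0604) IgMG array with HEL.

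**Figure D3:**
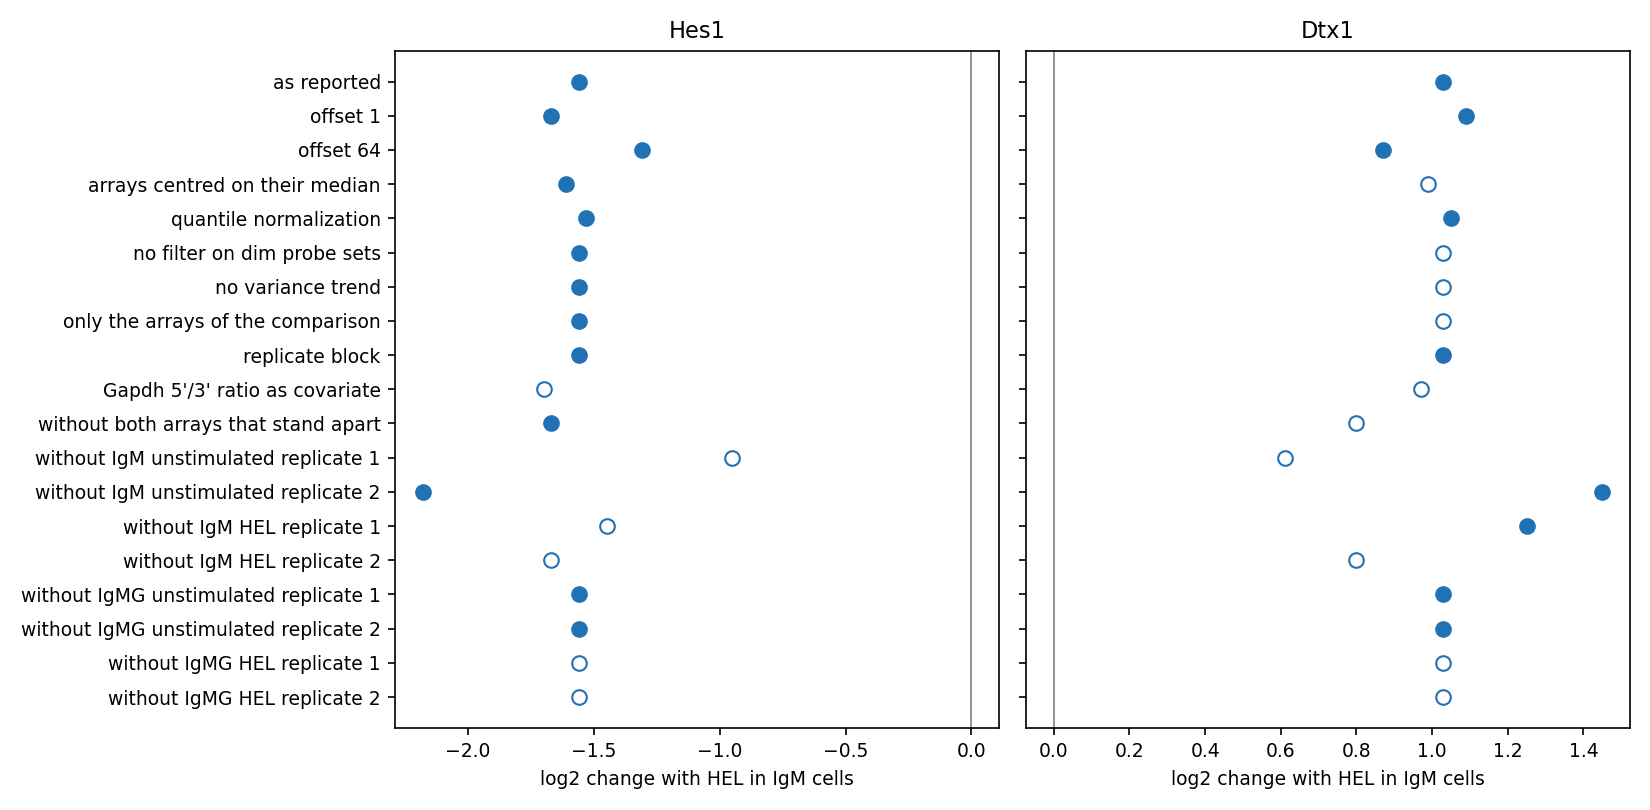
Log2 change with HEL in IgM cells of Hes1 (left) and Dtx1 (right) as reported and under each alternative setting; filled points had an adjusted p under 0.05, and the vertical line marks no change. All Hes1 points lie between -2.18 and -0.95 and all Dtx1 points between 0.61 and 1.45, the smallest of both without the first unstimulated IgM array.

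Ordered by mean signal, the groups differed from gene to gene. Dtx1 stood at 455 ± 32 in unstimulated IgMG cells, 402 ± 91.1 in IgM cells with HEL, 381 ± 25.5 in IgMG cells with HEL and 195 ± 83.7 in unstimulated IgM cells (SD, n = 2 each), with a gap in the arrays only above the last. Hes1 stood at 436 ± 257, 234 ± 75.1, 132 ± 4.67 and 124 ± 15.1 in unstimulated IgM, unstimulated IgMG, stimulated IgMG and stimulated IgM cells, with a gap only between the unstimulated and the stimulated groups. Rbpj stood at 77.8 ± 29 in unstimulated IgMG, 72 ± 12.4 in stimulated IgM and 57.5 ± 11 in unstimulated IgM cells, all overlapping, and at 30.4 ± 1.48 in stimulated IgMG cells. For Notch1 (97497_at) only the unstimulated IgM arrays, at 175 ± 2.05, stood clear of the next group, stimulated IgMG at 160 ± 12.9. For Notch2 (104188_at) no neighbours in the order were separate.

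The probe sets most like each member were those with the smallest root mean square difference of log2 values over the 8 arrays, after each probe set was centred on its mean. For Dtx1 they were Socs5 (0.224), Fgf11 (0.251) and Fndc1 (0.257), against a spread of Dtx1 itself over the arrays of 0.57 (SD). For Hes1 they were Pafah1b3 (0.205), Arid3a (0.207) and Gm2a (0.253), with a spread of 0.77, and for Rbpj they were Pip4k2a (0.17), Dao (0.222) and Sox3 (0.225), with a spread of 0.46. For Notch1 they were Cxxc1 (0.0544), Rala (0.0589) and Scamp2 (0.0662), with a spread of 0.16. For Notch2 they were Pacs1 (0.129), Reep5 (0.143) and Trafd1 (0.146), with a spread of 0.37. Probe sets of the members were left out of this search, so it cannot tell whether the members resembled each other.

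Beyond the members, 63 other genes of the pathway were listed by role; 37 had a probe set and 26 were tested. Under IgM 2 of the 26 rose and 3 fell, 19.2% against 14% of all probe sets, and their median change was -0.07 against -0.02. Under IgMG 1 rose and 1 fell, 7.69% against 5.39%. Averaged over the receptors 3 rose and 4 fell, 26.9% against 20.2%. In the comparisons between the receptors, and in the difference of their responses, 0 of the 26 passed.

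Among the ligands only Dll1 and Jag2 of 5 had a probe set, and both were too dim to be tested, as were the receptors Notch3 and Notch4. Of the 9 genes of receptor processing 5 were tested. Psen2, a catalytic subunit of gamma-secretase, read 603 and 466 without and 270 and 226 with HEL under IgM, and 578 and 376 without and 324 and 392 with HEL under IgMG. It was lower with HEL under IgM with no overlap, as 30.6% of tested probe sets were, and overlapped under IgMG. It fell by 1.05 ± 0.24 under IgM (adjusted p = 0.0208 in limma) and changed by -0.37 ± 0.24 under IgMG (adjusted p = 0.405). Without the first unstimulated IgM array, the change under IgM was -0.87 (adjusted p = 0.144), and without the second IgM array with HEL it was -0.93 (adjusted p = 0.127).

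Adam10, the protease of the first cut, read 294 and 297 without and 489 and 537 with HEL under IgM, and 221 and 338 without and 438 and 426 with HEL under IgMG. It lay higher with HEL under both receptors. It rose by 0.76 ± 0.20 under IgM (adjusted p = 0.0399 in limma) and by 0.70 averaged over the receptors (adjusted p = 0.0105), and its change under IgMG was 0.63 ± 0.20 (adjusted p = 0.113). The IgM call was lost in 11 of 19 alternatives, among them those without either unstimulated IgM array, either IgM array with HEL or either IgMG array with HEL, with values of 0.62 to 1.15 over all of them. A second, dimmer Adam10 probe set changed by 1.54 under IgM and 0.30 under IgMG.

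Psenen, a further gamma-secretase subunit, read 326 and 308 without and 392 and 329 with HEL under IgM, and 266 and 263 without and 394 and 516 with HEL under IgMG. It was higher on every array with HEL than on any without, as 10.8% of tested probe sets were. Under IgM the gap was narrow, with 329 on the lower array with HEL against 326 on the higher unstimulated array. Psenen rose by 0.46 ± 0.13 averaged over the receptors (adjusted p = 0.0382 in limma), but neither receptor alone passed. Its change was 0.17 ± 0.18 under IgM (adjusted p = 0.582) and 0.74 ± 0.18 under IgMG (adjusted p = 0.0535). The averaged call of Psenen was lost in 9 of 17 alternatives, 6 of them without 1 array and 1 with the replicate block, with values of 0.36 to 0.55 and adjusted p up to 0.151. Averaged in the same way, Psen2 of the same enzyme fell by 0.71 (adjusted p = 0.0178 in limma), a call lost without the first unstimulated IgM array, the second IgM array with HEL or the first IgMG array with HEL (-0.62, -0.65 and -0.65).

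Of 5 listed genes whose enzymes add sugars to Notch, 3 were tested, and none passed in any comparison. These 3 were the fringe enzymes, which tune the choice of ligand. Mfng came nearest: it read 289 and 303 without and 327 and 253 with HEL under IgM, and 416 and 333 without and 222 and 201 with HEL under IgMG. It overlapped under IgM and was lower with HEL under IgMG, as 29.4% of tested probe sets were. Its changes were -0.04 ± 0.19 (adjusted p = 0.924 in limma) and -0.77 ± 0.19 (adjusted p = 0.0519). Mfng was singled out after its values were seen.

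Among 11 genes of turnover and signal regulation, 6 were tested and 1 passed. Fbxw7, the ubiquitin ligase subunit that marks the Notch intracellular domain for breakdown, read 112 and 111 without and 50 and 75.3 with HEL under IgM, and 99.4 and 105 without and 56.4 and 74.5 with HEL under IgMG. All arrays with HEL lay below all without, as for 12.9% of tested probe sets. It fell by 0.63 ± 0.16 averaged over the receptors (adjusted p = 0.0248 in limma), while neither receptor alone passed (-0.72, adjusted p = 0.0694, and -0.55, adjusted p = 0.203). The averaged call was lost without either unstimulated IgM array (-0.63 and -0.64), the first IgM array with HEL (-0.52) or the first IgMG array with HEL (-0.55).

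Of 19 nuclear cofactors 9 were tested. Hdac1, a histone deacetylase found in RBPJ corepressor complexes and in many others, read 301 and 345 without and 612 and 714 with HEL under IgM, and 260 and 352 without and 649 and 577 with HEL under IgMG. It was higher on every array with HEL than on any without, as 10.8% of tested probe sets were. It rose by 1.00 ± 0.19 under IgM (adjusted p = 0.0104 in limma) and by 0.98 ± 0.19 under IgMG (adjusted p = 0.024). Without the first unstimulated IgM array or the second with HEL, the IgM value was 0.91 (adjusted p = 0.0821) and 0.89 (adjusted p = 0.0799), and without the first unstimulated, first stimulated or second stimulated IgMG array the IgMG value was 0.77, 0.90 and 1.06 (adjusted p = 0.0775, 0.144 and 0.145). Kat2b, a histone acetyltransferase that works with the active Notch complex, read 251 and 288 without and 158 and 81.1 with HEL under IgM, and 232 and 214 without and 145 and 173 with HEL under IgMG. It fell by 1.13 ± 0.27 under IgM (adjusted p = 0.025), with a change of -0.45 under IgMG (adjusted p = 0.363). Its other probe set stood at 0.24 under IgM, opposite in sign, and without the second IgM array with HEL, the one with the high 5'/3' ratio, the change was -0.71 (adjusted p = 0.114). Without the first or the second unstimulated IgM array it was -1.23 (adjusted p = 0.0973) and -1.04 (adjusted p = 0.129).

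Of 12 other genes linked to Notch as targets 8 had a probe set and 3 were tested: Hes6, Hey1 and Ccnd1. Hes6, a relative of Hes1 that can oppose it, read 237 and 154 without and 64.4 and 63.9 with HEL under IgM, and 212 and 143 without and 84 and 61.9 with HEL under IgMG. All arrays with HEL were below all without, as for Hes1 and for 12.9% of tested probe sets. It fell by 1.37 ± 0.27 under IgM (adjusted p = 0.0108 in limma) and by 1.11 ± 0.27 under IgMG (adjusted p = 0.0478). Averaged over the receptors Hes6 fell by 1.24 ± 0.19 (adjusted p = 0.00248), and that call held in all 17 alternatives, as did the averaged rise of Hdac1 by 0.99. Hey1, another repressor of the Hes family, read 41.1 to 56 on the 8 arrays and did not pass in any comparison. The IgMG call of Hes6 was lost without 7 of the 8 arrays in turn, with adjusted p up to 0.287, and its IgM value without the first unstimulated IgM array was -1.09 (adjusted p = 0.0956) and without the second IgM array with HEL -1.37 (adjusted p = 0.0683).

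**Figure D4:**
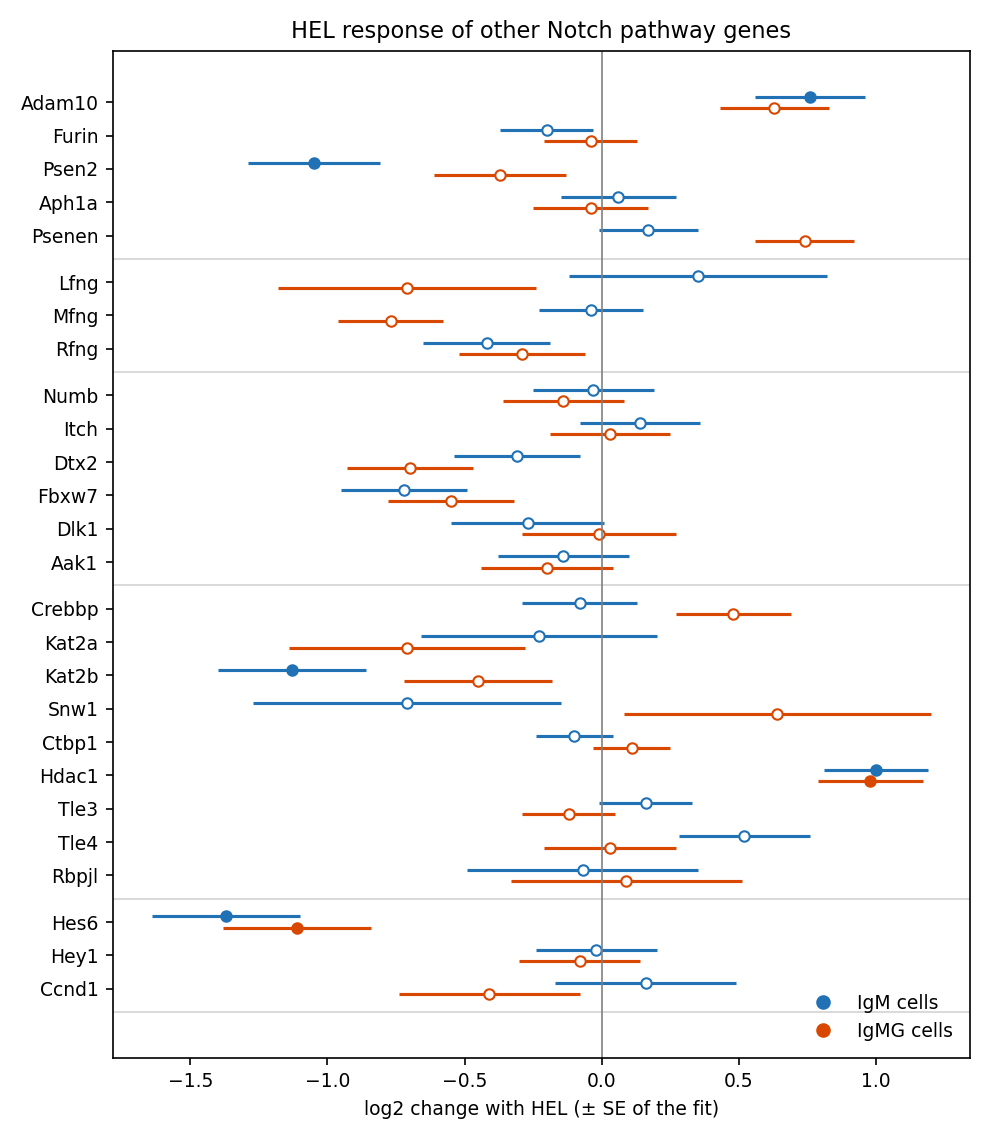
Log2 change with HEL (± SE of the fit) of the 26 tested pathway genes that are not members, in IgM (blue) and IgMG cells (orange), grouped by role from receptor processing at the top to targets at the bottom; filled points had an adjusted p under 0.05. Hes6 and Hdac1 are filled for both receptors, Adam10, Psen2 and Kat2b for IgM.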

How the data were processed

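Total RNA of 8 samples of pooled mouse FO B cells was hybridised to single-colour short-oligonucleotide arrays. The deposited intensity values are linear MAS5 signals, 1 per probe set, per the submitters' processing notes and the values; the authors had scaled them to a 2% trimmed mean near 150 on each array. Version and detection calls: not given in the sources used here. Groups and array numbers came from the titles, and no paired samples are named. Of 12488 probe sets, 66 controls were left out. The log2 of signal plus 16 was fitted with limma 3.58.1 (R 4.3.3) over all 8 arrays, 1 coefficient per group, with a variance trend (4 residual and 4.87 prior degrees of freedom), on the brightest 60% by mean log2 value (lowest mean signal 23.2). The fit was tested on simulated data. Probe sets carry the platform's symbols: 10833 have 1, 396 several (not named) and 1193 none. A member with several probe sets is led by its brightest. Among pathway genes, up to 3 per list with the largest averaged HEL response that passed in any comparison are named. The members and lists were chosen with earlier results of these data known. The number of arrays limits the precision. In the titles the array numbers follow the letters exp, and what they stand for is not stated. Same-numbered arrays of 2 groups deviated from their group means with correlations of -0.161 to -0.0341. With so few arrays in a group, these values cannot settle whether the numbers pair the samples. Alternatives covered offset, scaling, filter, variance trend, arrays fitted, a replicate block, RNA quality, probe set choice and left-out arrays. Figures used Python 3.11.15 and matplotlib 3.10.9.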

Additional observations from a re-analysis of the deposited data

Results flagged for a closer look

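For Dtx1, both IgM arrays with HEL lay above both unstimulated IgM arrays, and both IgMG arrays with HEL lay below both unstimulated IgMG arrays. Opposite directions without overlap, in either order, were shown by 5.02% of all tested probe sets. The IgMG change was -0.25 ± 0.27 (interval -0.87 to 0.37, adjusted p = 0.66 in limma), so no direction was shown under IgMG. The difference of the responses, IgMG minus IgM, was -1.28 ± 0.39 on the log2 scale, with an adjusted p = 0.414 in limma that ran from 0.21 to 0.871 over its 17 alternatives. Its value ran from -1.69 to -0.86 over the same alternatives.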

How the results depend on the processing

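With 2 arrays in a group, every call of a member was lost in at least 1 alternative, and no adjusted p under 0.05 was seen in any receptor comparison of a member. Of the 7 member probe sets, 2 passed under IgM; 1 passed with arrays centred on their median, with no filter, with no variance trend, or without both arrays that stand apart (the second IgM array with HEL and the second unstimulated IgMG array), and 0 with the Gapdh 5'/3' covariate. These counts mix genes: with only the arrays of the comparison Dtx1 was lost and the dimmer Notch2 probe set gained, and without either IgMG array with HEL Dtx1 and Hes1 were lost and that probe set gained. Leaving out arrays in turn gave 0 to 2 under IgM, 0 to 1 under IgMG (reported: 0) and 0 to 2 for the averaged response (reported: 2), which had 1 with no filter and 1 without both arrays. With the replicate block, Dtx1 under IgM was 1.03 (adjusted p = 0.0357 in limma) and Hes1 -1.56 (adjusted p = 0.0232), and the block changed no call of a member; calls over all probe sets became 426 higher and 443 lower under IgM (499 and 542 without it) and 173 and 100 under IgMG (231 and 171). A crossed pairing of the unstimulated arrays, added after the data were seen, gave 0 calls. Median centring split the IgMG calls 233 to 97. No value that changed sign had an adjusted p under 0.05, as reported or after the change, and the cause was not tested. Averaged over a gene's probe sets, Notch1 became 0.06 under IgM, -0.04 between receptors with HEL and 0.08 over both receptors; Notch2 became 0.60, 0.28, -0.20 and 0.44 under IgM, under IgMG, between receptors with HEL and over both. With the 5'/3' covariate, the brighter Notch2 probe set became 0.27 under IgM and -0.62 between receptors with HEL, where Notch1 was -0.04 and Dtx1 0.04; the dimmer Notch1 probe set became -0.04 under IgMG. Without both arrays, brighter Notch2 was 0.12 under IgM and -0.18 with HEL, Notch1 -0.11 (dimmer probe set -0.19) under IgMG and Dtx1 0.17 with HEL. Median centring gave 0.05 for the Notch2 difference of responses and -0.02 for its dimmer probe set at rest. Leaving out arrays in turn, brighter Notch2 spanned -0.53 to 0.12 under IgM, -0.68 to 0.16 under IgMG, -0.47 to 0.36 for the difference of responses, -0.22 to 0.62 at rest and -0.18 to 0.47 with HEL. Dimmer Notch2 spanned -1.29 to 0.12 for the difference and -1.24 to 0.16 with HEL. Notch1 spanned -0.11 to 0.29 (dimmer -0.19 to 0.36) under IgMG and -0.19 to 0.01 over both receptors, and its dimmer probe set -0.18 to 0.36 at rest. With HEL, Dtx1 spanned -0.28 to 0.17 and Hes1 -0.03 to 0.19 between the receptors.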
